A study of Drosophila melanogaster with 8 samples.

Results

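CL8 is a Drosophila melanogaster cell line, and gene expression was compared between 4 flasks of it, flasks 1 and 2 against flasks 3 and 4. They are 4 of the 8 samples of a study that hybridised total RNA to Affymetrix DrosGenome1 arrays, 1 array a flask. The other samples are 3 flasks of the RasV12 line, which was made from embryos expressing an oncogenic form of Ras and was profiled at passage 12, and 1 flask of a line called L2. All cells were at 70% confluence, each RNA came from a T-flask of its own, and the labels name no treatment, passage, tissue of origin or batch that separates the CL8 flasks. Each line is represented by itself alone, so that the values describe flasks and arrays of 1 line and not lines of a kind.

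The 2 pairs were chosen from the data. They are the pairs that joined first when the arrays were clustered on the 20% of probe sets with the largest SD over all 8 arrays, at a distance (1 minus the Pearson correlation) of 0.0206 for flasks 1 and 2 and 0.00717 for flasks 3 and 4. Every gene on the array therefore counts as used in setting the pairs. The differences between the pairs are given below as descriptions, with no test, and they cannot show that the flasks form 2 kinds.

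RNA levels can differ between flasks of a continuous line for many genes at once. The labels do not give the stock or the passage from which each CL8 flask came. Some gene groups are known for answering quickly to culture conditions or signals. Heat shock genes encode chaperones that are induced when proteins misfold. Antimicrobial peptide genes are induced through the Toll and Imd pathways. The EGF receptor acts through Ras and MAP kinase, and its output includes its own inhibitors, such as the secreted antagonist Argos, the receptor inhibitor Kekkon 1 and the phosphatase Mkp3.

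Expression is given throughout as the deposited log2 value, made by the authors with GCRMA, so that a difference of 1 is 2-fold. A probe set was called different when both arrays of one pair lay above both of the other, the means differed by at least 1, and the mean of the higher pair exceeded that of the highest background control. Of 13966 probe sets, 322 were called (2.31%), 163 of them higher in flasks 1 and 2 (1.17%) and 159 lower (1.14%). A difference of at least 2, which is 4-fold, was reached by 26 probe sets higher and 22 lower in flasks 1 and 2. Most of the array showed little difference, with 88.8% of probe sets less than 0.5 apart. The median difference over all probe sets, flasks 1 and 2 minus flasks 3 and 4, was -0.11, and -0.01 after quantile normalization (rescaled below), so that small differences are read against that shift. Counting each gene once by its brightest probe set gave 234 called genes of 10845 (2.16%), 128 higher in flasks 1 and 2 (1.18%) and 106 lower (0.977%).

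**Figure D1:**
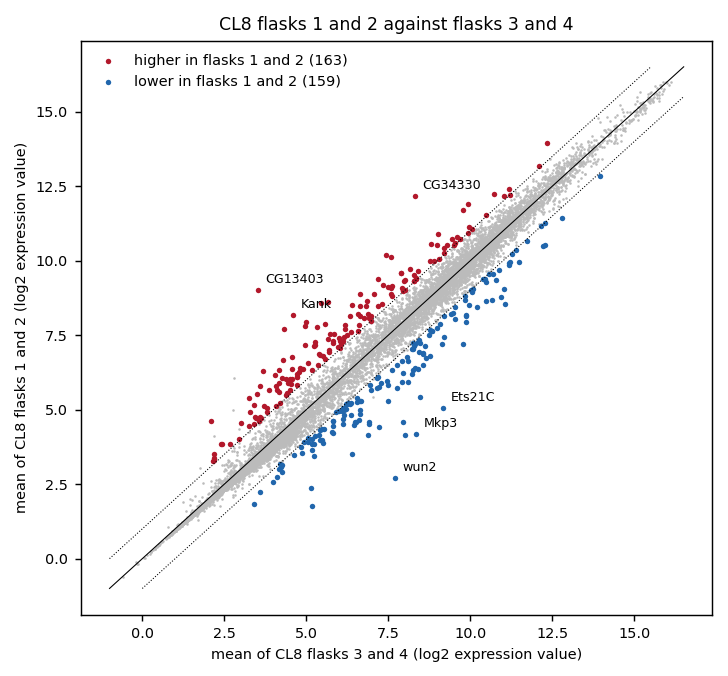
Mean log2 expression value of CL8 flasks 1 and 2 (vertical axis) against that of CL8 flasks 3 and 4 (horizontal axis), 1 point per probe set, with the line of equality and dotted lines at a difference of 1. The 163 probe sets called higher in flasks 1 and 2 are red, the 159 called lower are blue and all others are grey.

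The arrays themselves differed in control probe sets, which are not among the 13966 probe sets compared. The 3′ probe set for 18S ribosomal RNA, which is not polyadenylated and is not a target of the labelling, read 10.88 and 9.35 in flasks 1 and 2, against 14.41 and 14.58 in flasks 3 and 4. Its 5′ probe set averaged 6.18 in flasks 1 and 2 and 8.78 in flasks 3 and 4. Both probe sets were thus lower in flasks 1 and 2 without overlap, while the RasV12 flasks spanned 8.04 to 11.37 and L2 read 7.09 on the 3′ set. The bacterial bioD 5′ transcript, spiked in to check hybridisation, read 10.10 and 10.54 in flasks 1 and 2, against 11.68 and 11.82 in flasks 3 and 4. Flask 1 had the lowest CL8 value on 9 of 9 spiked probe sets. The drop from the 3′ to the 5′ probe set of actin, larger where less of the transcript's 5′ part is labelled, was 0.87 and 1.62 in flasks 1 and 2, against 0.65 and 0.50 in flasks 3 and 4. For GAPDH the same drop averaged 1.25 in flasks 1 and 2 and 1.48 in flasks 3 and 4, the opposite order. In all, 18 of 26 such control measures did not overlap between the pairs. The 26 are not independent, since they include several probe sets of the same transcripts and 3′ minus 5′ differences taken from them. The share of all probe sets without overlap is not given here, so the count has nothing to be read against. In an exact permutation test, two-sided, 2 flasks against 2 cannot give less than p = 0.333 (0.481 adjusted over the 26 measures), which all 18 had, so none could pass. The part of these control differences in the gene differences that follow was not tested.

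**Figure D2:**
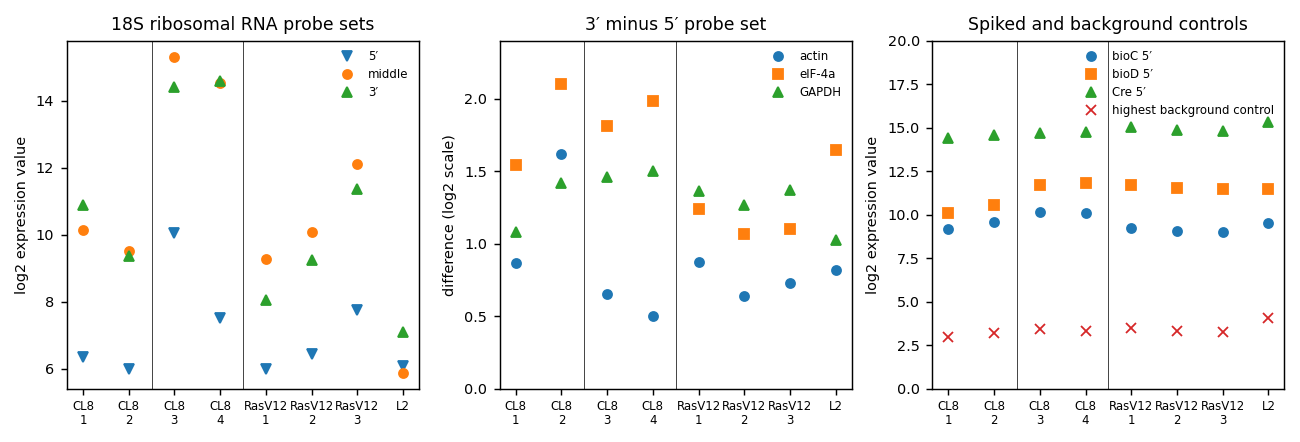
Control probe sets on each array (horizontal axis), with vertical lines between CL8 flasks 1 and 2, CL8 flasks 3 and 4 and the other lines. The left panel shows log2 values of the 18S ribosomal RNA probe sets, the middle panel the 3′ minus 5′ difference of actin, eIF-4a and GAPDH on the log2 scale, and the right panel log2 values of spiked controls and of the highest of 23 background controls. The 18S 3′ values of CL8 flasks 3 and 4 (14.41 and 14.58) lie above those of every other array.

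The flasks of a pair were not equally alike. Taken 1 against 1, flasks 1 and 2 had 278 probe sets at least 1 apart among those above background on either array, 200 of them higher in flask 1 and 78 lower. Flasks 3 and 4 had 73, with 39 higher in flask 3 and 34 lower. Across the pairs the number was 535 and 576 for flask 1 against flasks 3 and 4, and 427 and 456 for flask 2 against the same flasks. When the squared deviations over the 4 flasks were summed over 9567 probe sets above background, 62.4% lay between the pairs, 27.8% between flasks 1 and 2, and 9.77% between flasks 3 and 4. Among the 500 probe sets with the largest SD, the difference between the pairs was the largest of these components for 363. That between flasks 1 and 2 was the largest for 118 and that between flasks 3 and 4 for 19. Since the pairs came from clustering these same arrays, a large part between them was favoured in advance. It is no support for the pairs.

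**Figure D3:**
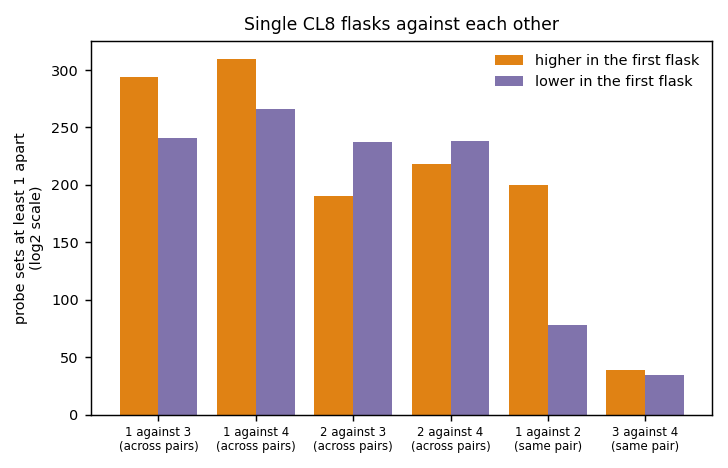
Number of probe sets at least 1 apart on the log2 scale (vertical axis) for each of the 6 comparisons of single CL8 flasks (horizontal axis), split by whether they were higher or lower in the first flask named. Flasks 3 and 4 differ at 39 and 34 probe sets, and flask 1 against flask 4 at 310 and 266.

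The genes higher in flasks 1 and 2 were led by 2 genes known only by their CG numbers. CG13403 read 9.20 and 8.84 in flasks 1 and 2, against 4.15 and 2.93 in flasks 3 and 4, a difference of 5.48 ± 0.64 (SE from the spread within pairs, here and below). Flask 4 lay within the background controls for this gene, so that its value is only a bound. With that value raised to the highest control on its array, the difference was at least 5.30. CG34330 read 12.55 and 11.76 in flasks 1 and 2, against 7.99 and 8.61 in flasks 3 and 4, a difference of 3.85 ± 0.50. Neither overlapped between the pairs. The RasV12 mean was 2.83 for CG13403, within the background controls as flask 4 was, and 3.93 for CG34330, below all 4 CL8 flasks. Kank, an ankyrin repeat protein gene, read 8.12 and 8.23 in flasks 1 and 2, against 4.33 and 4.86 in flasks 3 and 4, a difference of 3.58 ± 0.27. It was also low in the other lines, at a mean of 2.81 in RasV12 and 2.92 in L2, within the background controls of those arrays. CG17760 was higher by 3.39 ± 0.23 and CG13086 by 2.92 ± 0.53.

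Cubn, which encodes the endocytic receptor cubilin, read 8.30 and 8.95 in flasks 1 and 2, against 5.65 and 5.67 in flasks 3 and 4, a difference of 2.96 ± 0.32. GrlHz, a gustatory receptor-like gene, read 6.17 and 6.42 in flasks 1 and 2, against 3.62 and 3.71 in flasks 3 and 4. SP1029, a membrane aminopeptidase gene, read 7.41 and 8.13 in flasks 1 and 2, against 4.61 and 6.02 in flasks 3 and 4, so that the pairs were separate although flask 4 lay nearer to flasks 1 and 2. The difference for SP1029, 2.46, was 1.75 without flask 3 and 3.16 without flask 4. trk, which encodes Trunk, a ligand of the Torso receptor in the early embryo, read 7.54 and 6.82 in flasks 1 and 2, against 4.82 and 5.07 in flasks 3 and 4. Its other probe set lay within the background controls in all 4 flasks.

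Proteases, a cytochrome P450 and a defence peptide were among the same 15 genes with the largest differences towards flasks 1 and 2. teq, a multidomain serine protease gene, read 10.41 and 9.82 in flasks 1 and 2, against 7.57 and 7.61 in flasks 3 and 4. Of its other probe sets one was also called, at 1.21, and the brightest differed by -0.14, close to the median of all probe sets. Mmp2, a matrix metalloprotease gene, read 7.47 and 5.86 in flasks 1 and 2, against 4.64 and 3.96 in flasks 3 and 4, and its difference of 2.37 was 1.56 without flask 1 and 3.17 without flask 2. Cyp6a20, a cytochrome P450 gene, read 10.19 and 10.17 in flasks 1 and 2, against 7.66 and 7.16 in flasks 3 and 4, a difference of 2.77 ± 0.25. Drs, which encodes the antifungal peptide drosomycin, read 8.39 and 9.37 in flasks 1 and 2, against 6.40 and 6.84 in flasks 3 and 4. The pairs did not overlap for either gene, and L2 lay outside both at 5.11 for Cyp6a20 and 13.32 for Drs. Eato, an ABC transporter gene, was higher by 2.23 on 1 probe set, but by 0.15 on its other probe set. Its value in flask 4 lay within background, and with that value raised to the control the difference was 2.16, or 0.92 without flask 1 and 3.41 without flask 2. Set8, the gene of the histone H4 lysine methyltransferase, was higher by 2.30 on 1 probe set and differed by 0.38 and -0.07 on the other ones.

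The genes lower in flasks 1 and 2 were led by wun2 and by signalling genes. wun2, which encodes a lipid phosphate phosphatase that guides germ cell migration in the embryo, read 2.74 and 2.66 in flasks 1 and 2, against 7.77 and 7.65 in flasks 3 and 4. In flasks 1 and 2 it lay within the background controls, so that it was at least 24.4-fold lower there. Mkp3, on the probe set with the larger difference, read 4.35 and 4.02 in flasks 1 and 2, against 8.71 and 7.98 in flasks 3 and 4, a difference of -4.16 ± 0.40. On its other probe set, which is the brighter one over all lines, the pairs overlapped at 5.90 and 4.50 in flasks 1 and 2, against 5.47 and 6.15 in flasks 3 and 4. Ets21C, an ETS family transcription factor gene, read 7.17 and 2.93 in flasks 1 and 2, against 9.11 and 9.25 in flasks 3 and 4. It was lower in flasks 1 and 2 without overlap, but flasks 1 and 2 differed by as much as the pairs did, and the difference of -4.13 ± 2.12 was -2.01 without flask 2, which lay within the background controls.

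Genes of nuclear proteins were also among the 15 with the largest differences in this direction. Hipk, a nuclear protein kinase gene, read 8.83 and 8.24 in flasks 1 and 2, against 11.11 and 11.02 in flasks 3 and 4, a difference of -2.53 ± 0.30. trx, which encodes the histone methyltransferase Trithorax, read 4.93 and 4.11 in flasks 1 and 2, against 7.15 and 6.67 in flasks 3 and 4. Snoo, the fly Sno corepressor gene, read 4.51 and 4.68 in flasks 1 and 2, against 7.10 and 6.71 in flasks 3 and 4. All 3 were separate between the pairs by more than the flasks of a pair differed. sbb, a transcriptional corepressor gene, was lower by a difference of -2.88, and Smr, which encodes a corepressor of nuclear receptors, by -3.04 (-4.16 without flask 1, -1.92 without flask 2). Cip4, an F-BAR protein gene that links membranes to actin, differed by -3.36 (-4.03 without flask 1, -2.68 without flask 2). Of these genes Smr had another probe set that was called too, at -1.46, while the other ones of Hipk (0.03), sbb (0.14), Snoo (-0.27) and Cip4 (-0.19) were not called. Mtk, which encodes the antimicrobial peptide metchnikowin, read 1.59 and 3.15 in flasks 1 and 2, within the background controls, against 5.38 and 4.92 in flasks 3 and 4. It was at least 4.15-fold lower in flasks 1 and 2. CG3397 was within background in flasks 1 and 2 as well and at least 4.24-fold lower there, with flask 3 at 4.11 and flask 4 at 6.26. That bound was 8.97-fold without flask 3 and 2.01-fold without flask 4. CG31998 was lower on 1 probe set, at -3.86 (-2.91 without flask 2, which lay within background), and on its brighter one differed by 0.80 with overlap.

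**Figure D4:**
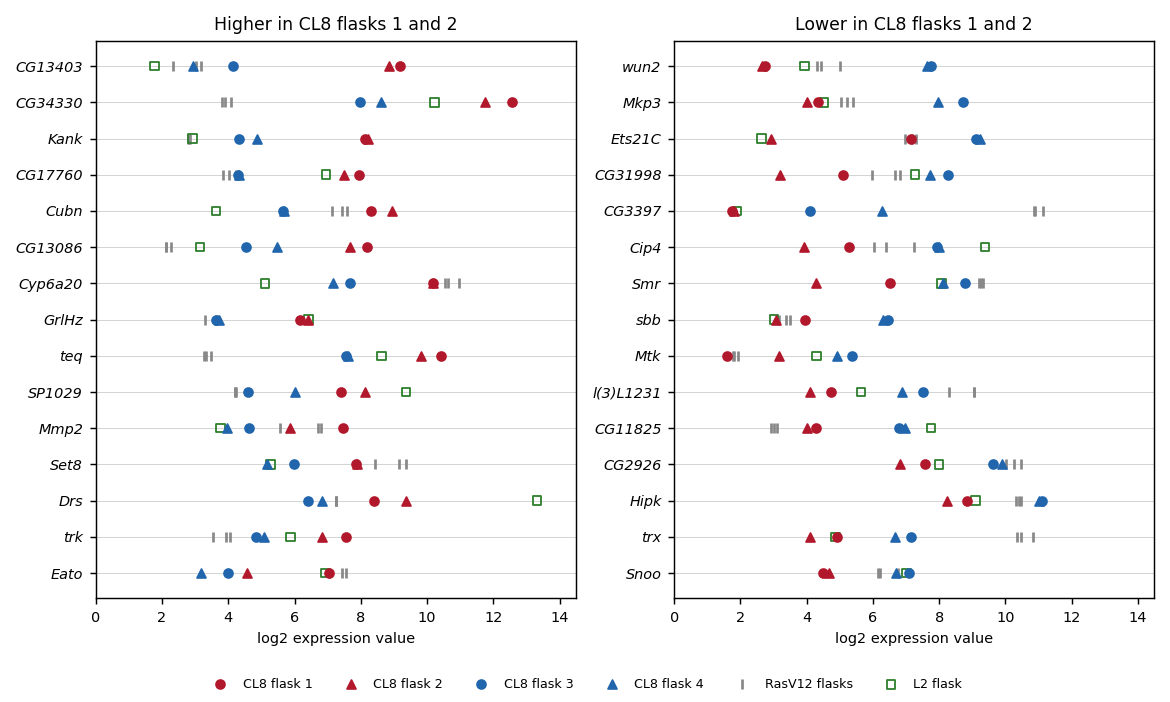
Log2 expression value (horizontal axis) of the 15 genes with the largest differences in each direction, on the probe set with that difference. Red symbols are CL8 flasks 1 (circle) and 2 (triangle), blue symbols CL8 flasks 3 (circle) and 4 (triangle), grey ticks the 3 RasV12 flasks and open squares the L2 flask. Ets21C shows the widest gap within a pair, at 7.17 in flask 1 and 2.93 in flask 2.

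Different probe sets of a gene often disagreed, which limits what the gene lists below can show. Of 80 genes with 2 or more probe sets and at least 1 called, 5 had more than 1 called in the same direction and 0 had calls in opposite directions. In 61 another probe set lay above background and was not called. Over the 73 other probe sets of this kind, 45 differed in the direction of the called one once the median shift was taken off, by a median of 0.07.

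Few members of 36 gene lists were called, each gene being read by its brightest probe set. Of 914 list members 11 were higher in flasks 1 and 2 (1.2%) and 15 lower (1.64%), beside 1.18% and 0.977% of all genes. In a short list 1 call alone exceeds these shares. In 17 lists 0 members were called. These lists hold housekeeping functions for the most part, among them 64 mitochondrial ribosomal protein genes, whose differences ran from -0.43 to 0.52 with a median of 0.05, 40 proteasome genes (-0.35 to 0.39), 35 genes of the respiratory chain and ATP synthase (-0.44 to 0.30) and 35 of mitosis and the cell cycle (-0.79 to 0.98). Of 37 cytoplasmic ribosomal protein genes 1 was called. That gene, RpS5b, one of a pair of genes for the same ribosomal protein, read 10.46 and 10.64 in flasks 1 and 2, against 8.77 and 8.82 in flasks 3 and 4.

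The list of EGF receptor and MAP kinase targets and feedback genes had the lowest median of the lists, at -0.68 (-0.75 rescaled), beside -0.11 for all genes (-0.01 rescaled). Of its 10 measured genes 3 were called, all lower in flasks 1 and 2, and 0 higher, beside 0.977% and 1.18% of all genes. Besides Ets21C these were aos and kek1. aos, which encodes Argos, read 6.07 and 5.68 in flasks 1 and 2, against 7.18 and 7.40 in flasks 3 and 4, a difference of -1.41 ± 0.22. kek1 read 6.79 and 6.76 in flasks 1 and 2, against 8.15 and 7.96 in flasks 3 and 4, a difference of -1.28. Neither gene overlapped between the pairs. The other 7 genes were not called. Among them were edl (-0.77), a regulator of the pathway's transcription factors, and aop (-0.74), an ETS repressor. So were sty (-0.61), which encodes the inhibitor Sprouty, and Mkp3 on its brighter probe set (-0.61). The others were spi (-0.27), which encodes the ligand Spitz, Egfr (0.22), the receptor gene, and bwa (0.41). The list was chosen with earlier results of these data known and is no independent evidence of its direction.

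Of 12 heat shock and chaperone genes 3 were called, all lower in flasks 1 and 2, beside 0.977% of all genes. Hsp26, a small heat shock protein gene, read 9.44 and 8.66 in flasks 1 and 2, against 11.08 and 10.98 in flasks 3 and 4. Hsp68, of the Hsp70 family, read 7.31 and 6.28 in flasks 1 and 2, against 8.84 and 8.68 in flasks 3 and 4. Hsp27, another small heat shock protein gene, differed by -1.20, and by -0.92 without flask 2. All 3 were separate between the pairs, and the other 9 members lay between -0.36 and 0.30, with Hsf, the transcription factor of the response, at -0.36. In the list of the unfolded protein response and endoplasmic reticulum chaperones 0 of 16 were called, and its median of 0.19 (0.14 rescaled) was the highest of the lists as deposited. Its gene with the largest difference, Hsc70-3, the BiP chaperone, read 10.57 and 8.63 in flasks 1 and 2, against 8.83 and 8.89 in flasks 3 and 4, so that flask 1 stood apart from the other 3.

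Genes of the defence list were called in both directions and those of the detoxification list in 1. Probe sets of other detoxification genes, not among the calls of that list, were called the other way. The cytochrome P450 genes Cyp6a20 and Cyp6d5 were higher in flasks 1 and 2 by 2.77 and 1.48. Ugt37D1, a UDP-glycosyltransferase gene, was higher by 1.93. The direction of the list therefore depends on which genes it holds. Of 18 genes of the antimicrobial peptide and immune list 1, Drs, was higher in flasks 1 and 2 (5.56%, beside 1.18% of all genes). Lower were 2 (11.1%, beside 0.977%), Mtk and pirk, an inhibitor of the Imd pathway, which differed by -1.25. Rel, the NF-kappaB factor of that pathway, differed by -0.85 and was not called. Of 33 genes of the oxidative and xenobiotic list 2 were lower in flasks 1 and 2 (6.06%, beside 0.977% of all genes). GstD5, a glutathione S-transferase gene, read 6.56 and 5.93 in flasks 1 and 2, against 7.93 and 7.95 in flasks 3 and 4. Gclc, the catalytic subunit of the enzyme that limits glutathione synthesis, differed by -1.12, and by -0.76 without flask 2. Of 16 JNK target and wound genes Ets21C was lower and Mmp2 higher (6.25% each, beside 0.977% and 1.18% of all genes). In a list this short 1 call alone exceeds these shares. Jra, which encodes the fly Jun protein, lay just outside the threshold. It read 11.18 and 11.13 in flasks 1 and 2, against 12.28 and 12.03 in flasks 3 and 4.

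Lists of matrix, adhesion, developmental and neuronal genes gave at most 2 calls each. Pxn, which encodes peroxidasin, a basement membrane enzyme made by hemocytes, read 11.75 and 12.02 in flasks 1 and 2, against 9.86 and 10.01 in flasks 3 and 4, a difference of 1.96. With Mmp2 it made 2 of 24 genes of the basement membrane and integrin list, both higher in flasks 1 and 2 (8.33%, beside 1.18% of all genes). rst, an adhesion receptor gene of the immunoglobulin family, was higher by 1.92. boi, a Hedgehog co-receptor gene, was higher by 1.44 and bam, a germline differentiation gene, by 1.81. Lac, a septate junction gene, differed by -1.46 and ena, an actin regulator gene, by -1.44 (-0.93 without flask 2). Of 15 neuronal genes 2 were lower in flasks 1 and 2 (13.3%, beside 0.977% of all genes). elav, an RNA-binding protein gene of neurons, differed by -1.94. Nrt, which encodes neurotactin, differed by -1.95 (-2.69 without flask 1, -1.21 without flask 2). The other probe set of Nrt differed by -0.44 and was not called. In the lipid list wun2 was lower and Acsl, a long-chain acyl-CoA synthetase gene, was higher by 1.24. EcR, the ecdysone receptor gene, was higher by 1.03 (0.83 without flask 2) and Unr, an RNA-binding protein gene of dosage compensation, also by 1.03 (0.72 without flask 1). Cht2, a chitinase gene, was higher by 1.17, with flask 3 at 4.30 and flask 4 at 2.86, and by 0.45 without flask 4. Flask 4 lay within background, and with its value raised to the control the difference was 0.95, under the threshold.

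**Figure D5:**
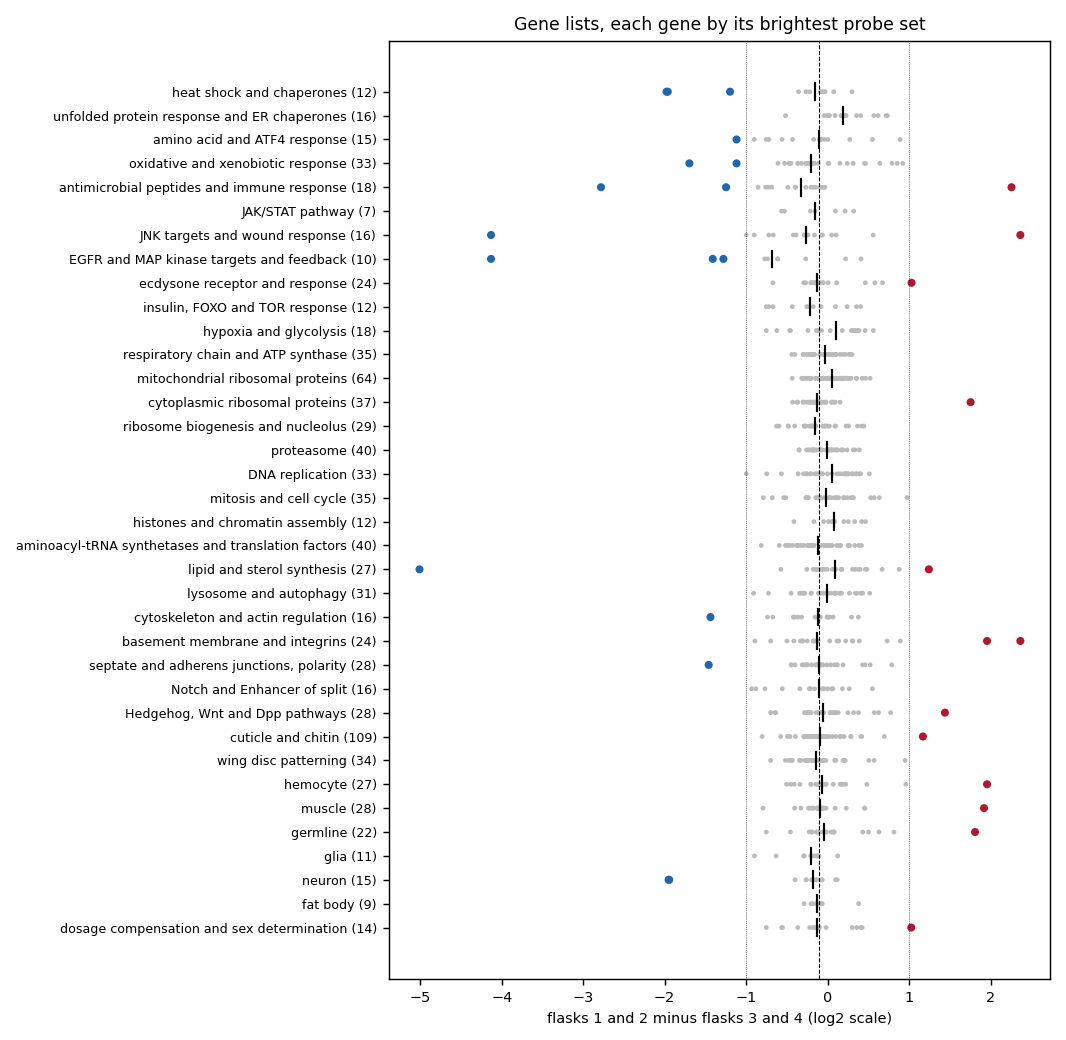
Difference of each list member between the pairs, flasks 1 and 2 minus flasks 3 and 4 on the log2 scale (horizontal axis), by gene list (vertical axis, with the number of measured genes). Red points were called higher and blue points lower in flasks 1 and 2, grey points were not called, black ticks are list medians, the dashed line is the median of all genes (-0.11) and dotted lines mark the threshold of 1.

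Few markers of the cell types that a fly line could hold were called. With 2.16% of all genes called, sets of this size would hold few calls whatever their genes. The counts therefore say little about cell identity. Of 15 measured wing disc markers 10 lay above background in flasks 1 and 2 and 10 in flasks 3 and 4, with 0 called and Dll, bi, ct, dac and tsh within background. Of 10 hemocyte markers 10 lay above background in either pair, and Pxn was the 1 called. Muscle, glia and fat body markers had 0 called, the germline markers bam, and the neuron markers elav. The median over the hemocyte markers was 5.04 and 5.75 in flasks 1 and 2, against 5.70 and 5.58 in flasks 3 and 4. In such bulk samples fewer cells of a type and less RNA per cell cannot be told apart.

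Called genes were not spread evenly over expression level or gene length. Of the 7756 genes above background in at least 1 pair 3.02% were called, 1.65% higher and 1.37% lower in flasks 1 and 2. These genes were ranked by their mean level over the 4 CL8 flasks and cut into 4 sets of 1939. The share called was 0.98% in the dimmest set and 7.01% in the next, which runs from 4.29 to 7.88. It was 2.42% in the set above that and 1.65% in the brightest. The level comes from the same values as the calls. A gene high in 1 pair and near background in the other gets a middle level. A gene near background in both pairs has little room to differ. The shares by level are thus partly set in advance. Genes lower in flasks 1 and 2 had a median length, introns included, of 6485 bases, beside 2787 for genes higher there and 2617 for all 7736 genes with a length in RefSeq (assembly Release 6 plus ISO1 MT). Of the 104 lower genes with a length 27.9% were among the longest 10% of all genes, and of the 128 higher ones 15.6%. Among the 175 genes at least 1 apart between flasks 1 and 2 the share was 26.9%, and among the 56 at least 1 apart between flasks 3 and 4 it was 14.3%.

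Some genes varied more within a pair than between the pairs. CG4928 read 7.48 in flask 1 and 3.50 in flask 2, and plum, which encodes an immunoglobulin superfamily protein, 7.32 in flask 1 and 3.73 in flask 2. Flasks 3 and 4 lay between these values, at 6.06 and 6.63 for CG4928 and at 4.52 and 4.42 for plum, so that neither gene was called. stj, a calcium channel subunit gene, read 6.17 in flask 1 and 3.12 in flask 2. Between flasks 3 and 4, Obp99a, an odorant-binding protein gene, read 4.41 and 7.34, and pros, a homeodomain transcription factor gene, 4.23 and 6.25. bbg was called between the pairs, but it read 2.01 in flask 3 and 4.56 in flask 4, and its difference of 1.65 became 0.37 without flask 3. Flask 3 lay within background, and with its value raised to the control the difference was 0.95, under the threshold. At the threshold of 1, Fkbp14 and BthD (1.01) lay just inside on the higher side, and CG14431 and PIG-S just outside. In the other direction, drongo and Sulf1 (-1.01) lay just inside, and Cdc6 and Jra just outside.

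The RasV12 flasks give the spread between flasks of another line, although they shared in choosing the probe sets that were clustered. Of 138 probe sets called higher in flasks 1 and 2 and above background in RasV12, 5.07% spanned at least 1 over the 3 RasV12 flasks, and of 147 called lower, 6.80%, beside 2.54% of 9030 probe sets above background there. The median SD over the RasV12 flasks was 0.17 in both sets and 0.14 for all. Ets21C, which differed by 4.23 between flasks 1 and 2, read 7.17, 7.30 and 6.96 in the RasV12 flasks.

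For some of these genes the sign of the difference between RasV12 and CL8, the study's main comparison, depends on the CL8 pair used. With all 4 CL8 flasks, limma called 6969 of 13966 probe sets (49.9%) between the lines, 1580 higher (11.3%) and 5389 lower (38.6%) in RasV12, and after rescaling 4941 higher and 4157 lower. Ets21C was higher in RasV12 by 2.09 than in flasks 1 and 2 and differed by -2.04 from flasks 3 and 4. The first of these rests on flask 2 alone, at 2.93, since flask 1 read 7.17 and the RasV12 mean was 7.14. On the probe sets called above, Hipk differed by 1.87 and -0.67 from these pairs, Cip4 by 1.95 and -1.41 and Mkp3 by 1.04 and -3.12. The other probe set of each kept 1 sign. It gave -2.21 and -2.18 for Hipk and 1.91 and 1.71 for Cip4, and that of Mkp3 is given below. For these genes the change of sign therefore belongs to 1 probe set. For Cubn the differences were -1.23 and 1.73, for Drs -1.63 and 0.63 and for Mmp2 -0.31 and 2.06. The RasV12 mean of Mmp2, 6.36, lay between flask 2 (5.86) and flask 1 (7.47). All genes here were chosen for a large difference within CL8, which widens the spread in limma's test, so that a p that misses the threshold would say nothing and none is given for these. Other genes kept 1 sign, and not all of them passed limma's threshold. CG17760 differed by -3.67 and -0.28 (limma adjusted p = 0.123) and RpS5b by 0.34 and 2.09 (0.0727), and both missed it. For the reason given, these misses say nothing either. The genes that follow passed it. trx was higher in RasV12 by 6.04 and 3.64 (limma adjusted p = 0.000479), and teq differed by -6.76 and -4.23 (0.000257), CG34330 by -8.23 and -4.38 (0.00134) and aos by 2.54 and 1.13 (0.00665). On its brighter probe set Mkp3 was higher in RasV12 by 5.01 than in flasks 1 and 2 and by 4.40 than in flasks 3 and 4, with limma adjusted p = 1.23e-05.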

How the data were processed

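RNA of 8 flasks was measured on Affymetrix DrosGenome1 arrays. The authors deposited log2 expression values that, per the series' design text, were made with GCRMA in Bioconductor, a method that corrects background by GC content, normalizes and summarises the probes of a set. The software versions, and whether 1 run covered all arrays, are not given in the sources used here. That the values are log2 follows from the method and from their range.

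From these values 44 control probe sets were set aside. Genes were named through the platform annotation and the symbols of RefSeq (Release 6 plus ISO1 MT): 12443 of 13966 probe sets had 1 gene, and 12394 of these matched RefSeq. A gene was read by its brightest probe set over all arrays. Background was the highest of 23 control probe sets for transcripts neither of the fly nor spiked (mean 3.10 over flasks 1 and 2, 3.35 over flasks 3 and 4). A fold is given as "at least" where both arrays of a pair lay at or below it, with the control's value in place of lower ones. RasV12 was compared with CL8 by limma 3.58.1 in R 4.3.3 (1 fit of all 8 arrays, Benjamini-Hochberg adjustment over all probe sets, threshold 0.05); other values were computed in Python 3.11.15. The scripts were tested on simulated data. The number of arrays limits the precision.

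The genes named are the 15 with the largest difference in each direction (at most 4 each with a CG number), up to 2 per list, the 6 with the largest difference within each pair and those next to the threshold; Hsp27, kek1 and pirk were added after their values were seen, and the text gives a part of the rest. The pairs, lists and genes were chosen with earlier results of these data known. Alternatives were other scalings, thresholds, filters, probe sets and leaving out each flask. Sequences are not used here.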

Additional observations from a re-analysis of the deposited data

Results flagged for a closer look

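In 9 of 110 sets of values, those of the named genes and of the control measures, 1 of the 4 CL8 flasks stood apart from the other 3, with a gap to its nearest neighbour that, as a share of the whole range, passed Dixon's limit for 4 values, which chance passes about 1 time in 20. That rate does not apply to these sets. The named genes were chosen from the same 4 values, some, such as bbg, for a gap within a pair, and the control measures are related. The 9 are therefore listed without being compared with it. Flask 1 stood apart in 6 of the 9. It was high for Hsc70-3, with a gap of 0.864 of the range, and for the middle GAPDH control probe set, at 12.94 against 12.49 to 12.54 in the other flasks (0.889). It was low for the spiked controls bioB 5′ (0.865), bioB middle (0.852) and Cre 3′ (0.838), and for the median of the 23 background controls, at 2.49 against 2.72 to 2.74 (0.899). Flask 2 was low for scyl, a gene of the hypoxia response, at 8.59 against 9.83 to 10.06 (0.841), and high for Pomp, a proteasome maturation gene, at 12.28 against 11.49 to 11.58 (0.879). Flask 3 was low for bbg, at 2.01 against 4.56 to 5.06 (0.837).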

How the results depend on the processing

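The counts between the pairs depended most on the size required. At 1.5-fold 520 probe sets were higher and 550 lower in flasks 1 and 2 (1070 in all), and at 4-fold 26 and 22 (48 in all). Quantile normalization gave 170 higher and 130 lower, sharing 280 of the 322 calls, and centring on the median 180 and 143. Without 1 flask, a count that then rests on 3 arrays and passes the overlap rule more easily, 179 to 273 probe sets were higher, 185 to 234 lower and 367 to 507 called in all, the most without flask 2, and 31 to 40 list members were called beside 26 with all flasks. Under both scalings 0 of the 322 calls changed sign. The share of squared deviations between the pairs was 63.2% rescaled, 62.1% centred and 61.8% with no filter on dim probe sets. Between RasV12 and CL8, rescaling gave 4941 probe sets higher, and the split between higher and lower calls therefore depends on the scaling; with CL8 flasks 1 and 2 alone 6731 probe sets were called, and with flasks 3 and 4 alone 7147. Another probe set of a called gene differed with the opposite sign for teq (-0.14), Set8 (-0.072), trk (-0.22), CG31998 (0.80), sbb (0.14), Hipk (0.031), EcR (-0.13), boi (-0.039) and bbg (-0.26), and the cause was not tested. The shift of all probe sets was -0.11, the values of trk and EcR are within background in all 4 flasks, and that of boi was 0.12 rescaled. Raising values within background to the control, an alternative added after seeing the data, left Cht2 and bbg at 0.95 each. The labels give RasV12 and CL8 the same replicate numbers, but samples with the same number did not deviate together (r = -0.25, -0.14 and -0.09), and with a replicate block 6334 probe sets were called, beside 6665 for the same samples without it, a fit added after seeing the data. Between the flask pairs no paired analysis was possible because that comparison has no test.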
